A study of Mus musculus with 8 samples.

Results

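The Col15a1 and Kcnk2 fibroblast nuclei of the mouse heart were 2377 nuclei in 5 single-nucleus RNA libraries, 24.1% of 9876 fibroblast-gated nuclei and 6.29% of 37767 nuclei in all. A nucleus entered the fibroblast gate if it had at least 200 detected genes, under 5% mitochondrial UMIs (unique molecular identifiers, 1 per captured RNA molecule) and under 2% of its UMIs from Ttn, Ryr2 and Trdn. It also needed at least 1 UMI of Pdgfra, the PDGF receptor alpha carried by fibroblasts, and 0 UMIs of Cdh5 (endothelium), Csf1r (macrophages) and Rgs5 (pericytes). A member had at least 2 of 5 genes detected: Col15a1, Kcnk2, D630003M21Rik, Entpd2 and Hmcn2. It also had at most 1 detected gene of each of 3 other lists, which mark other fibroblasts: Pi16, Cd248, Gfpt2 and Plcxd3, then Kcnip1, Gfra1, Hsd11b1 and Necab1, then Fgf10, Acss3, Vit and Lvrn. The members were therefore chosen on measured UMIs, and the levels of these 17 genes, and of the 7 genes of the gate, are a description.

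Cardiac fibroblasts build and turn over the matrix between myocytes and carry signals to myocytes, vessels and immune cells. Most lie in the interstitium of the working myocardium, next to capillaries and the basement membranes of myocytes, and a smaller population lies in the adventitia of large vessels. Col15a1 encodes a chain of collagen XV, a collagen of basement membrane zones, and Kcnk2 a potassium channel that opens on membrane stretch. Entpd2 encodes an ectonucleotidase, which hydrolyses extracellular ATP, and Hmcn2 a hemicentin, a large extracellular matrix protein.

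The study compared adult hearts of female and male mice, either non-transgenic (nTg) or transgenic with constitutive expression of cyclin A2 (Tg, Tg-ccna2). The labels give neither ages, nor the promoter of the transgene, nor whether tissue of several animals was pooled. Of 8 labelled libraries, 5 had a matrix with as many columns as their own barcode list: 1 of nTg females (nTg female 1), both of Tg females (Tg female 1, then 2) and both of Tg males (Tg male 1, then 2). Values of 5 libraries below follow this order. The other 3 (nTg female 2, nTg male 1 and nTg male 2) held the values of 3 of the Tg libraries, entry for entry, and were not used. The 5 libraries had 25045167 to 38593706 UMIs, and 14 to 28 cell barcodes were shared by any pair of them. Ccna2, the gene of the transgene, was sparse in the members: 5.43, 1.30, 14.2, 1.77 and 1.45 CPM (UMIs of the gene over all UMIs of the summed nuclei, times 1e6), from 7, 2, 25, 2 and 1 UMIs. The members of the library labelled nTg female 1 thus held more Ccna2 than those of 3 of the 4 libraries labelled Tg. This rests on few UMIs of the members alone, and Ccna2 in cardiomyocytes is not given here. Every name here is a label, and no difference is assigned to the transgene.

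The 5 choosing genes were found across the fibroblast gate and not in the members alone. In GRCm38 coordinates (GENCODE vM21), Col15a1 is at chr4:47208161-47313167 (plus strand), Kcnk2 at chr1:189207930-189402273 (minus strand) and D630003M21Rik at chr2:158182533-158229222 (minus strand). Entpd2 is at chr2:25395874-25401321 and Hmcn2 at chr2:31314415-31460738, both on the plus strand. All 5 are protein-coding genes. RefSeq start sites (GRCm38.p6) were available for 5 of 5, and for Kcnk2 the window of 1 of its 4 listed starts was used. The 250 bases before the start of 4 of them are shown because these genes name the nuclei and were read together. Capitals mark matches, on either strand, to GGAATG (the TEAD motif), TGANTCA (AP-1), AGAACA (half-site of the glucocorticoid receptor) or CAGCTG (an E-box). No match of one motif overlapped a match of another.
Col15a1: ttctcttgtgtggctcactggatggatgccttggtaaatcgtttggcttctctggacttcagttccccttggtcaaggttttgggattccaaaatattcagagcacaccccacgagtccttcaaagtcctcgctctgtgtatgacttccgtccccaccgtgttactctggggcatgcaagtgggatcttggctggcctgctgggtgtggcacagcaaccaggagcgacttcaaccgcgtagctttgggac
Kcnk2: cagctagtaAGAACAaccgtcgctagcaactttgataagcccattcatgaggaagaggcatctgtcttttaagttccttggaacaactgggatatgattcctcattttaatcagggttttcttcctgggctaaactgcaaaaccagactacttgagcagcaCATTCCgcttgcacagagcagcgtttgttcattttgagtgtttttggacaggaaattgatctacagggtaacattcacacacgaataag
Entpd2: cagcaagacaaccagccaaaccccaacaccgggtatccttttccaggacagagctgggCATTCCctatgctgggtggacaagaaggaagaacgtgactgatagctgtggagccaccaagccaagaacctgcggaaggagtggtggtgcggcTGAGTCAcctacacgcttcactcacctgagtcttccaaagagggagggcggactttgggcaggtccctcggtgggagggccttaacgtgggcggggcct
Hmcn2: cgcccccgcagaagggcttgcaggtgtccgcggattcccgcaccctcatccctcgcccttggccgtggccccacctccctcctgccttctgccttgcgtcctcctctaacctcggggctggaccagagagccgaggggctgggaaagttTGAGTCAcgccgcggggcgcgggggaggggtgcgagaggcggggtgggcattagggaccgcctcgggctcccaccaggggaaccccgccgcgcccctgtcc
The windows are chr4:47207762-47208011, chr1:189402274-189402523 (minus strand), chr2:25395624-25395873 and chr2:31314082-31314331. The Col15a1 window held none of the 4 motifs, and neither did that of D630003M21Rik. Kcnk2 had 1 match to GGAATG and 1 to AGAACA, Entpd2 had 1 to GGAATG and 1 to TGANTCA, and Hmcn2 had 1 to TGANTCA. Among 32851 promoter windows of the same length, 12.6% held GGAATG, 6.75% TGANTCA, 16.1% AGAACA and 13.001% CAGCTG.

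Col15a1 was detected in 67.5, 78.1, 72.5, 67.5 and 67.3% of member nuclei. In the gated nuclei that were not members it was detected in 44.1 to 59.7%. Kcnk2 was detected in 33.9 to 50.8% of members and in 27.9 to 38.4% of the other gated nuclei. D630003M21Rik was detected in 52.0 to 60.4% against 32.6 to 45.3%, Entpd2 in 49.9 to 56.9% against 34.7 to 42.7%, and Hmcn2 in 49.6 to 68.3% against 31.6 to 52.6%. These gaps follow from the rule and were not tested. Macrophage nuclei, which should lack these genes, gave the background. They were chosen by macrophage markers and without a UMI of Pdgfra, which the gate requires, so that this background may be too low. Of these nuclei, 3.27 to 9.56% held a Col15a1 UMI and 0.613 to 6.18% a UMI of one of the other 4. In the whole gate, which was not chosen on these 5 genes, Col15a1 was detected in 47.5 to 64.2% of nuclei and the other 4 genes in 29.5 to 55.7%, at median depths of 2166 to 3116 UMIs against 2151 to 2967 in macrophage nuclei. Detection in the gate was thus above this background for each of the 5 genes. Endothelial nuclei, likewise chosen by markers and without a Pdgfra UMI, held Col15a1 in 4.46 to 11.8%.

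The members were not a sharply bounded population. Between 38.7 and 46.0% of the members of a library had just 2 of the 5 genes and 2.42 to 6.35% had all 5. The most frequent combination, Col15a1 with D630003M21Rik, made up 7.36% of members, and 26 combinations occurred. Within the gate, detection of one of the 5 genes went with more frequent detection of another for every pair of the 5 genes in each of the 5 libraries, by 2.38 to 21.1 percentage points (median 8.79 over both orders of each pair). Nuclei with the first gene were also deeper, by 113 to 561 median UMIs, and the part of depth in these gains was not tested. Just outside the threshold, nuclei with 1 of the 5 genes and the same limits on the other lists made up 5.75 to 13.7% of the gate. Just inside it, nuclei with 2 made up 6.62 to 15.4%.

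The label was checked against marker genes. Pdgfra is required by the gate and is no evidence. The other fibroblast markers (Dcn, Gsn, Col1a1, Col1a2, Col3a1, Tcf21, Lum, Abca8a and Mgp) all exceeded 20 CPM in 5 of 5 libraries, and with Pdgfra the list summed to 10548 to 16520 CPM. In the other gated nuclei the sum was 10012 to 15154 CPM, so that these markers did not set members apart. Adipocyte markers summed to 0.0 to 0.886 CPM, mesothelial markers to 0.886 to 5.80, lymphocyte markers to 1.77 to 9.66 and smooth muscle markers to 11.6 to 35.7. Macrophage markers summed to 14.2 to 78.9 CPM, valve-like markers to 62.8 to 92.0, endothelial markers to 91.3 to 231 and pericyte markers, among them Pdgfrb, to 194 to 246. Csf1r, Cdh5 and Rgs5 of these lists were at 0 by the gate. Cardiomyocyte markers summed to 707 to 1500 CPM in members and 903 to 1545 CPM in the other gated nuclei. Schwann markers reached 135 to 393 CPM, against 136 to 339, with the highest value in Tg female 1. No measurement of these libraries gives a position in the tissue, so the word interstitial in the working name of this population was not checked.

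The share of members in the gate was higher in the female than in the male Tg libraries, but this rested on the limits for the other lists. Members were 24.6% of 1651, 24.5% of 2372, 35.04% of 2135, 19.7% of 1995 and 14.4% of 1723 gated nuclei (95% Clopper-Pearson intervals, for counting error only, 22.5 to 26.7, 22.8 to 26.3, 33.0 to 37.1, 18.0 to 21.6 and 12.8 to 16.1). The mean was 29.8% ± 7.45 in the Tg female and 17.1% ± 3.79 in the Tg male libraries (SD, n = 2 each). Both female values lay above both male values. The exact two-sided permutation p was 0.3333, the smallest that 2 libraries against 2 can give. Nuclei with 2 or more of the 5 genes, before any other limit, made up 72.0, 71.0, 67.3, 74.7 and 66.0% of the gate, and the female minus male difference was then −1.29 percentage points (exact permutation p = 1). Without the limit on Fgf10, Acss3, Vit and Lvrn alone, members were 32.1, 27.2, 35.5, 29.8 and 24.03%.

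The limit on these 4 genes took unequal parts of the libraries. Nuclei with 2 or more of the 5 genes that failed this limit made up 14.8, 4.85, 0.937, 24.4 and 23.7% of the gate. Some of these nuclei also failed the limit on another list, so that this limit alone changed the member share by less. In all gated nuclei, where no limit on them applies, Lvrn, an aminopeptidase gene, had 277.5, 81.9, 43.0, 566 and 758 CPM. Acss3, an acyl-CoA synthetase gene of mitochondria, had 184, 50.5, 17.6, 216 and 261 CPM, and Fgf10, a fibroblast growth factor, had 35.2, 33.1, 11.8, 62.4 and 83.6 CPM. Vit, an extracellular matrix gene, had 119, 133, 64.1, 152 and 150.2 CPM. For each of the 4 genes both Tg female libraries lay below both Tg male ones in the gate, and no test was made of this. In the members 14.3% of 10860 genes at 10 CPM or more had this order, and the share for the whole gate is not given here. The share of members by sex is a share under a rule that reads these genes. Thinned to 1000 UMIs per nucleus, members were 23.95, 24.7, 29.6, 23.7 and 18.0% of the 1027, 1498, 1551, 1310 and 1169 nuclei that still met the gate, after 54, 328, 259, 168 and 96 shallower gated nuclei had been left out.

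**Figure D1:**
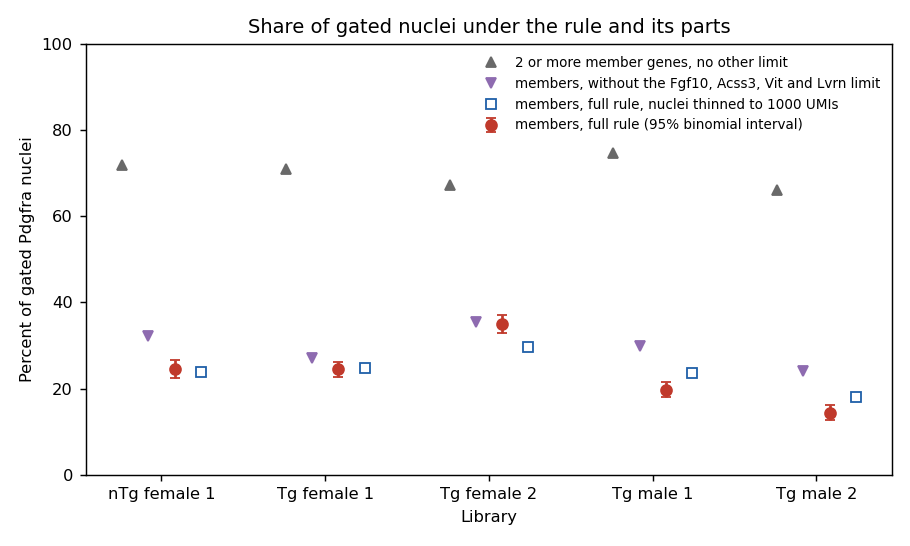
Percent of gated Pdgfra nuclei in each of the 5 libraries (horizontal axis) that passed the full rule (circles, with 95% binomial intervals), the rule without the Fgf10 list, the rule after thinning, or the requirement of 2 member genes alone. The full rule gives 14.4 to 35.04%, while 2 or more member genes were found in 66.0 to 74.7% of the gate in every library.

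Against the other gated nuclei, the members held slightly more RNA of Cilp, Meox1 and several collagen genes and less of Pkhd1l1, Dpp4 and Chrm3. Because the members were chosen in these same nuclei, this comparison is a description over 5 libraries, with no test, and gene levels are CPM with 1 CPM added before the log2. Of 8054 genes with at least 20 CPM in either set and no part in the rule, 487 were higher in members in 5 of 5 libraries (6.05%) and 453 lower in 5 of 5 (5.62%). None of the 487 reached a 2-fold mean ratio and 10 of the 453 did (0.124% of the genes). The members therefore differed from the rest of the gate by small shifts. That rest is not a set without the 5 choosing genes. Nuclei with 2 or more of them made up 66.0 to 74.7% of the gate, and members 14.4 to 35.04%. Many of the other gated nuclei were thus left out only by the limits on the other lists. The comparison does not separate the 5 genes from these limits.

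Cilp (chr9:65265180-65280605), which encodes an extracellular matrix protein first known from cartilage, had the highest mean ratio. It had 76.8, 46.0, 40.9, 35.5 and 40.6 CPM in members and 29.7, 21.9, 27.6, 14.1 and 26.2 CPM in the other gated nuclei, a mean log2 ratio of 0.96. Meox1, a homeobox transcription factor of activated fibroblasts, had 13.2, 27.2, 45.4, 23.9 and 26.1 CPM against 8.88, 19.5, 32.6, 9.14 and 13.2 (0.74). For both genes the members were above the other nuclei within each library. The ranges over libraries did not overlap for Cilp and overlapped for Meox1. F3, the tissue factor gene that starts coagulation, had a mean log2 ratio of 0.49. Enpp1, an ectoenzyme that makes pyrophosphate from ATP, had 52.7, 117, 105.1, 75.3 and 56.5 CPM in members (0.49). Further genes among the 15 highest ratios were Gm28153 (antisense), Stk32b, Gm17108, Ppp1r18, Mical2, Rbpms2, Hhat, Adcy7, 1700017B05Rik and Lhfpl2, with ratios of 0.45 to 0.82. Gm28153 is at 0.02 after thinning and at −0.42 against nuclei with 0 or 1 member gene.

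The 10 lowest ratios ran from −2.42 to −1.03. Pkhd1l1, a large transmembrane receptor-like protein, had 1.55, 9.07, 8.52, 2.66 and 0 CPM in members against 17.3, 39.2, 29.4, 13.3 and 11.2 in the other gated nuclei. Dpp4, a dipeptidyl peptidase known from adventitial fibroblasts, had 21.7, 21.4, 13.6, 17.7 and 10.1 CPM against 38.3, 54.3, 44.4, 28.7 and 31.9. The ranges of members and other nuclei did not overlap for Pkhd1l1 or Dpp4. Chrm3, a muscarinic acetylcholine receptor, Kcnq5 and Kcnma1, both potassium channels, Duox1, Tmem100, Thsd4, Nkain2 and the antisense gene Gm13561 completed the list.

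**Figure D2:**
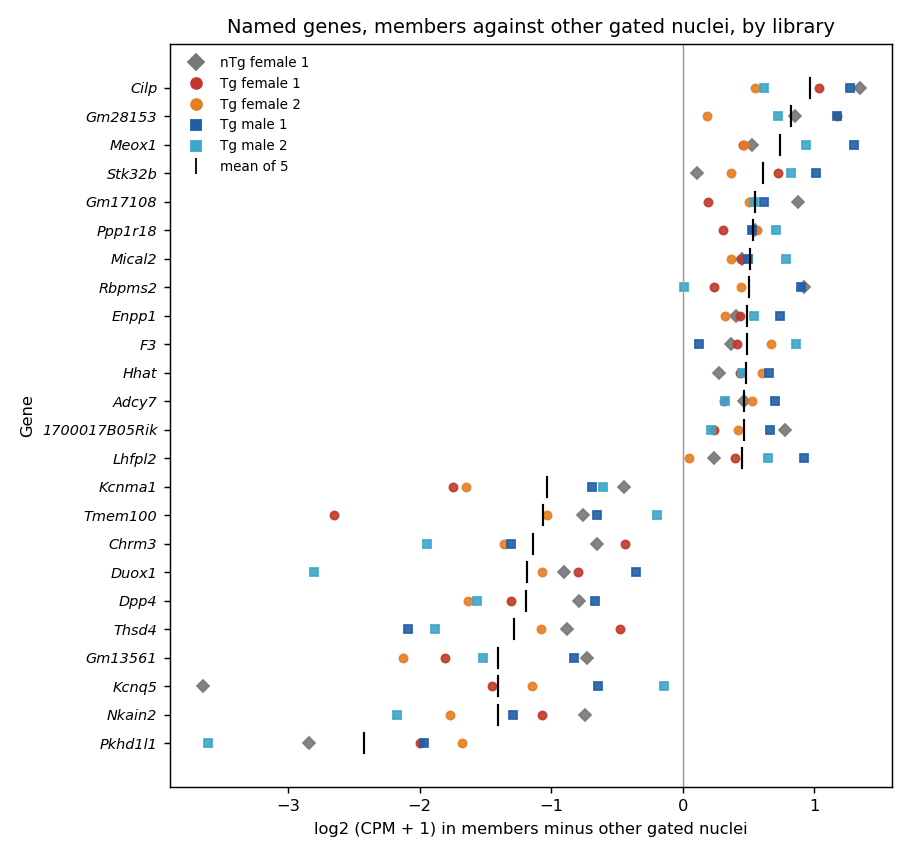
Difference of log2 (CPM + 1) between members and other gated nuclei (horizontal axis) for the genes with the highest and lowest mean ratios that are named in the text, 1 symbol per library and a bar for the mean of 5. All symbols of the upper 14 genes lie above 0 with means of 0.45 to 0.96, and the lower 10 genes spread more between libraries.

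Part of the collagen and basement membrane genes were slightly higher in members. Of 18 genes of fibrillar collagens, collagen VI and related chains, 14 reached 20 CPM, and 8 of these were higher in members in 5 of 5 libraries and 0 lower, with a median log2 ratio of 0.18 against 0.00 over all genes, of which 6.05% were higher in 5 of 5. Col6a3, a chain of collagen VI, had 407, 347, 321, 369 and 323 CPM in members (ratio 0.38), and Col8a1, a short-chain collagen, 1104, 1950, 1268, 1772 and 1436 CPM (0.28). Of 22 basement membrane genes, 17 reached that level, and 7 were higher in 5 of 5 libraries and 0 lower (median 0.11). Among them were the collagen IV chains Col4a1, Col4a2, Col4a3 and Col4a4, with the laminin chain gene Lama2, the perlecan gene Hspg2 and Smoc2. Col6a3 and the collagen IV chains were singled out after their values had been seen. Of 10 small leucine-rich proteoglycan genes 9 were compared, and Lum, Bgn and Ecm2 were higher in 5 of 5.

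**Figure D3:**
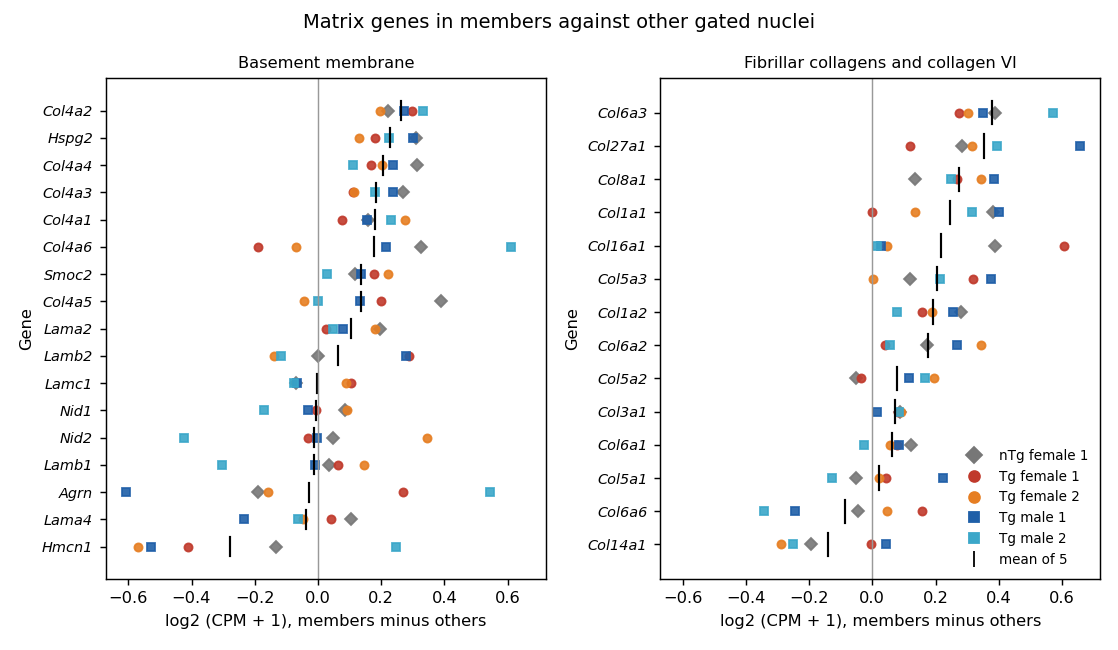
Difference of log2 (CPM + 1) between members and other gated nuclei (horizontal axis) for the basement membrane genes (left) and the collagen genes (right) that reached 20 CPM, 1 symbol per library and a bar for the mean. Means run from −0.28 for Hmcn1 to 0.38 for Col6a3, and most shifts are smaller than 0.4.

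Other matrix and signalling lists were mixed. Over all 8054 genes compared, 6.05% were higher and 5.62% lower in 5 of 5 libraries. Of 16 compared genes of matrix proteases and inhibitors, 2 (Mmp2 and Adamts2) were higher in 5 of 5 libraries and 7 were lower: the proteases Adamts5, Adamts12 and Adamts15, the ADAMTS-like genes Adamtsl1 and Adamtsl3, which lack protease activity, and the inhibitors Timp2 and Timp3. Adamts5, an aggrecanase, had 544, 442, 425, 581 and 560 CPM in members, with a mean ratio of −0.37. Of 20 growth factor and receptor genes 1 was higher (Pdgfrb) and 6 lower, among them Vegfa, Vegfd and the neurotrophin Ntf3. Of 15 elastic fibre genes Mfap4 and Ltbp4 were higher and Fbn1, Fbln5, Efemp1 and Ltbp1 lower. The tandem-pore potassium channels other than Kcnk2 were scarce: none of 8 reached 20 CPM, and the highest value in any library was 10.8 CPM, of Kcnk13 (named after its values had been seen).

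The members were also set beside 3 fibroblast sets chosen in the same way on the other lists. These held 516 nuclei (Pi16 and Cd248), 334 (Kcnip1 and Gfra1) and 412 (Fgf10 and Acss3, of which 15 came from Tg female 2). Of 2314 genes at 100 CPM or more, 13 were at least 2-fold higher in members than in the Pi16 and Cd248 set in 5 of 5 libraries (0.562%) and 40 lower (1.73%). Named by the 6 highest and 6 lowest ratios, a rule set after values had been seen, Col8a1 had 1506 ± 350 CPM in members and 676 ± 135 in that set (SD, n = 5 libraries each). Col6a3 had 354 ± 35.7 against 174 ± 69.0 CPM. Dpp4 was at 16.9 ± 5.0 against 133 ± 47.4, and Sema3c, a secreted guidance factor, at 70.1 ± 26.8 against 341 ± 110.

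Against the Kcnip1 and Gfra1 set, 13 of 2287 genes were at least 2-fold higher in members (0.568%) and 10 lower (0.437%). Myrip, which links vesicles to myosin, had 136 ± 34.6 against 41.5 ± 21.3 CPM, and the atypical chemokine receptor gene Ackr3 152 ± 17.6 against 64.1 ± 40.8. Lamb3, a laminin chain, was at 32.0 ± 9.78 against 132 ± 45.1. Against the Fgf10 and Acss3 set, 27 of 2344 genes were higher (1.15%) and 29 lower (1.24%). Hs3st3a1, a heparan sulfate sulfotransferase, had 107 ± 16.6 against 32.2 ± 24.7 CPM, and the long noncoding RNA Morrbid 402 ± 47.0 against 121 ± 19.4. Chrm3 was at 46.4 ± 29.7 against 368 ± 160. Cilp had 47.9 ± 16.5 CPM in members, 16.7 ± 3.62 in the Pi16 and Cd248 set, 7.99 ± 3.95 in the Kcnip1 and Gfra1 set and 4.97 ± 6.79 in the Fgf10 and Acss3 set. The lowest member library (35.5 CPM) lay above the mean of each of these sets.

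Among gated nuclei that met the same limits on the other lists, levels were followed by the number of the 5 genes detected, from 0 to 5. Cilp went from 13.1 CPM with 0 genes to 29.9, 34.3 and 58.5 CPM with 1, 2 and 3, and stood at 56.5 and 51.4 with 4 and 5. Meox1 had 22.9, 23.7, 27.9, 24.005, 34.2 and 51.4 CPM with 0 to 5 genes. The Meox1 level with 0 or 1 gene was thus close to that with 2 or 3. Stk32b, Gm17108 and Gm28153 did not rise steadily, and Ppp1r18 rose from 14.7 CPM with 0 genes to 29.4 CPM with 5. Tll2, a tolloid-like metalloprotease gene picked after values had been seen, had 16.3, 68.6, 80.1, 101, 119 and 161 CPM. It was not particular to the members: its mean over libraries was 97.4 CPM in them and 107 CPM in the other gated nuclei. The Kcnip1 and Gfra1 set had 140 CPM, the Pi16 and Cd248 set 56.5 and the Fgf10 and Acss3 set 15.6. Pkhd1l1 had 235 CPM with 0 genes and 23.7, 7.97, 2.11, 1.59 and 25.7 CPM with 1 to 5. Kcnq5 had 180, 46.4, 12.8, 8.002, 2.39 and 0 CPM with 0 to 5 genes. Postn, a matricellular protein of activated fibroblasts and valves, had 285, 141, 85.7, 83.4, 85.9 and 201.9 CPM with 0 to 5. For Pkhd1l1 and Postn the value with all 5 genes thus lay above those with 2 to 4. Nuclei with all 5 genes held 272464 UMIs in all, so that their values rest on few molecules. Nuclei with 0 genes were the shallowest in 4 of 5 libraries, and the part of depth in these trends was not tested.

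The sexes were compared within the Tg label, 2 female against 2 male libraries, on UMIs summed over the members of each library (1544111, 1760692, 1128264 and 689874). Of 11507 genes that passed the filter on low counts, 40 were called (0.348%, edgeR quasi-likelihood test with Benjamini-Hochberg adjusted p under 0.05), 7 higher (0.0608%) and 33 lower (0.287%) in the female libraries. At an unadjusted p under 0.05 there were 793, and DESeq2 called 54. Of the 40, 6 were sex-linked and checked the labels. Xist, which silences the inactive X chromosome, had 1931, 2223 and 1887 CPM in the 3 female libraries and 0 and 1.45 CPM in the male ones. Tsix, which overlaps Xist on the other strand, so that UMIs of this pair cannot be assigned with certainty, had 1350, 1611, 1746, 1.77 and 0 CPM. Of the Y-linked genes, Eif2s3y had 0 UMIs in the Tg female libraries and 94.8 and 72.5 CPM in the male ones, at least 95.1-fold lower against a limit of 3 UMIs over the 2 libraries. Kdm5d was likewise at least 36.4-fold lower, and Uty and Ddx3y were called as well. The 40 also held the rule genes Lvrn, Acss3 and Hsd11b1, whose levels in members the limits had already trimmed, so that their calls are not used as results.

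The other 31 called genes were autosomal, 5 higher and 26 lower in the female libraries. None of the 31 overlapped between the 2 female and the 2 male libraries, which the call makes nearly certain. Of 10860 genes at 10 CPM or more, 14.3% had both female libraries below both male ones and 22.6% above. Fmo2 (chr1:162874317-162898726), a flavin monooxygenase, had 558, 180, 142, 865 and 703 CPM, and fell by 2.35 ± 0.24 on the log2 scale (± is the standard error here and below; edgeR adjusted p = 0.000446). Dpyd (chr3:118562129-119432924), the first enzyme of pyrimidine breakdown, had 113, 58.3, 44.3, 230 and 296 CPM and fell by 2.42 ± 0.24 (edgeR adjusted p = 0.00033). Dpep1, a membrane dipeptidase, had 444.4, 162, 127, 366 and 462 CPM and fell by 1.58 ± 0.23 (edgeR adjusted p = 0.0112). For Fmo2 and Dpep1 the library labelled nTg female 1 stood with the male libraries or near them, far above both Tg female libraries.

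The largest fall outside the sex-linked genes was that of 9330159F19Rik, with 48.1, 3.89, 10.2, 147 and 109 CPM (−4.21 ± 0.36, edgeR adjusted p = 7.9e-05). C7, a complement component of the membrane attack complex, had 67.5, 55.0, 30.7, 193 and 599 CPM, so that its male level was far higher in Tg male 2 than in Tg male 1 (−3.26 ± 0.46, edgeR adjusted p = 0.0101). Ramp1, which makes the receptor of calcitonin gene-related peptide, had 1.55, 1.94, 2.84, 21.3 and 23.2 CPM and fell by 3.21 ± 0.51 (edgeR adjusted p = 0.0176). Mmp27, a matrix metalloprotease gene, had 3 and 1 UMIs in the Tg female libraries and 20 and 12 in the male ones (edgeR adjusted p = 0.0242). Galnt15, a glycosyltransferase, and Efemp1, a fibulin of the elastic fibre, fell by 2.63 ± 0.38 and 2.40 ± 0.37 (edgeR adjusted p = 0.0125 and 0.0153). Tox, a nuclear factor best known from T cells, fell by 2.09 ± 0.31 (edgeR adjusted p = 0.0149) and A330015K06Rik by 2.04 ± 0.32 (edgeR adjusted p = 0.0159).

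The 5 genes that rose were Col14a1, Fam227b, Rgs6, Hecw2 and Adamts19. Col14a1, a collagen that binds the surface of collagen fibrils, had 149, 370, 259, 113 and 53.6 CPM, a rise of 1.81 ± 0.30 (edgeR adjusted p = 0.0242). Rgs6, a regulator of G-protein signalling, had 168, 179, 120, 49.6 and 49.3 CPM (1.53 ± 0.26, edgeR adjusted p = 0.0242). Hecw2, a ubiquitin ligase, had 65.9, 135, 92.0, 37.2 and 42.0 CPM (1.47 ± 0.27, edgeR adjusted p = 0.0429). The library nTg female 1 lay nearer the Tg female side for 3 of the 5. The remaining lower genes, which include Fkbp5, Adarb1, Angptl7, Il6ra, Nalcn, Ppl and Usp54, had fitted differences of −1.94 to −1.30.

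**Figure D4:**
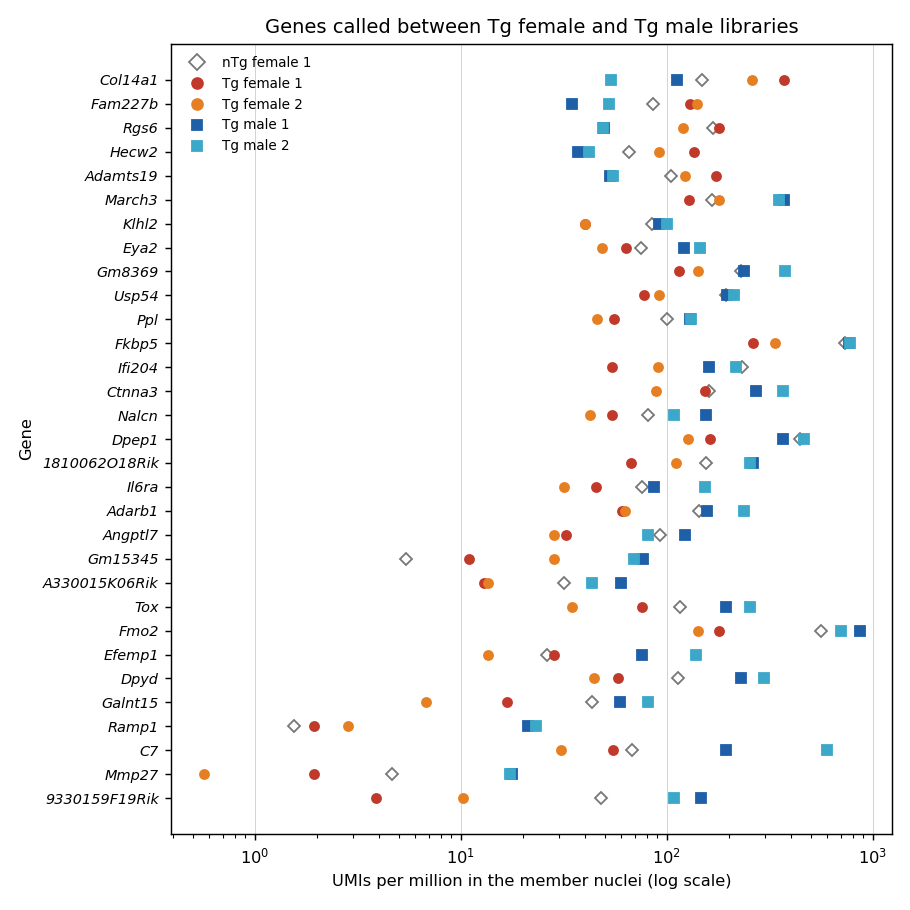
CPM in the member nuclei (horizontal axis, log scale) for the 31 autosomal genes called between Tg female (circles) and Tg male (squares) libraries, with the library labelled nTg female 1 as open diamonds. The genes were chosen by the call, so that circles and squares lie apart, and the diamond lies nearer the male side for 19 genes and nearer the female side for 12.

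The 31 autosomal genes were chosen for a difference between the Tg libraries, without the library labelled nTg female 1. The share of all genes for which that library lay nearer the male mean is not given here. Among the 31 genes, the library labelled nTg female 1 often did not lie with the Tg females. For 19 of the 31 autosomal genes its level was nearer the male than the female mean, among them 17 of the 26 lower ones, such as Fkbp5 with 737 CPM against 261 and 336 in the Tg female and 766 and 780 in the Tg male libraries. When this library was added to the female arm with no genotype term, 11 genes were called, 5 of them outside the sex-linked and rule genes. Sex, the genotype label, the individual animals and their handling cannot be told apart for the genes on which the 3 female libraries split.

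Most of these differences were not particular to the members. In the other gated nuclei 75 of 14920 genes were called (0.503%), 18 higher (0.121%) and 57 lower (0.382%) in the female libraries, and 23 of the 31 autosomal genes were among them. A test of the difference itself, the interaction of sex and membership with the library as a block, called 11 of 13994 genes (0.0786%, edgeR adjusted p under 0.05), 8 with a more positive difference in members (0.0572%) and 3 with a more negative one (0.0214%), with 774 at an unadjusted p under 0.05, while DESeq2 called 0 with 52 at an unadjusted p under 0.05. C7 was among the 11: its female minus male difference was −3.26 ± 0.46 in members and −2.21 in the other gated nuclei, each from its own fit, and the joint fit of both sets put the interaction at −0.99 ± 0.16 (edgeR adjusted p = 0.000396). Of the 31 genes C7 was the only one with such a call.

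Of the glucocorticoid-responsive genes 1 passed the test between the sexes, and every fitted difference of the list was below 0. Of 14 genes of this list, 12 passed the filter and 1, Fkbp5, was called, against 0.348% of all genes tested. The fitted female minus male difference was below 0 for 12 of 12, against 5679 of 11486 tested genes with no part in the rule. The median was −1.20 against 0.00 over all genes tested. The 2 female libraries lay below both male ones for 9 of 12 genes, against 14.3% of 10860 genes at 10 CPM or more. Zbtb16, a zinc finger transcription factor, had 2147, 508, 908, 2116 and 1760 CPM (−1.52 ± 0.30, edgeR adjusted p = 0.0676). Fkbp5 (chr17:28399094-28517527), a co-chaperone of steroid receptors, fell by 1.43 ± 0.22 (edgeR adjusted p = 0.0159). Tsc22d3, which encodes the glucocorticoid-induced leucine zipper, had 380, 152, 170, 316 and 257 CPM (−0.90 ± 0.21, edgeR adjusted p = 0.145), and Klf9 had 429, 224, 235, 261 and 277 CPM (−0.29 ± 0.20, edgeR adjusted p = 0.882). In the other gated nuclei the median of the list was −1.10. The nTg female library lay above both Tg female libraries for 9 of 12 of these genes, against 24.9% of all. It lay above all 4 Tg libraries for 6, against 13.3%. These counts and the count against the male libraries share the 2 Tg female libraries, so that they are not independent. The list was chosen with earlier results of these data known.

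**Figure D5:**
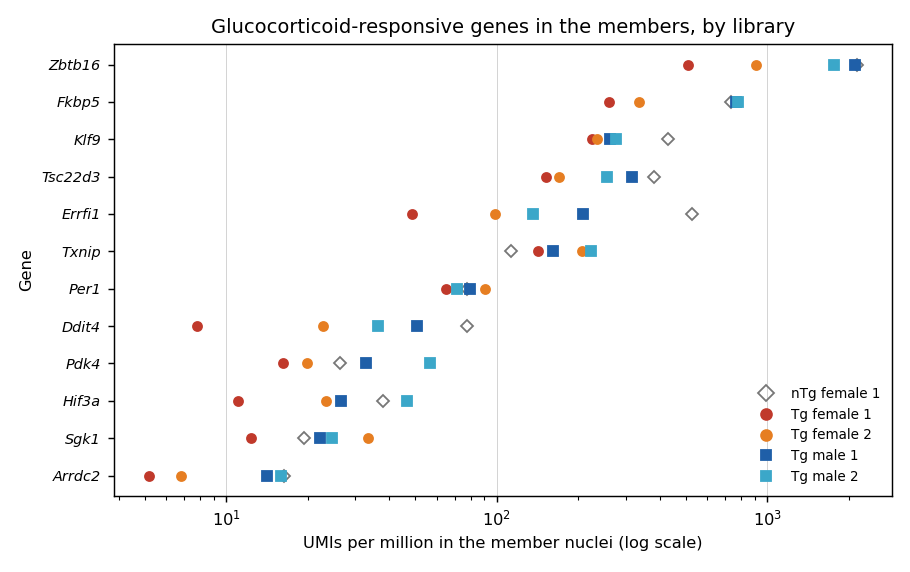
CPM in the member nuclei (horizontal axis, log scale) for 12 glucocorticoid-responsive genes in Tg female (circles), Tg male (squares) and nTg female (open diamonds) libraries. Circles lie left of both squares for 9 genes, and the diamond lies right of both circles for 9.

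Other lists had medians nearer 0. Of 8 genes tested of the complement list, which includes C1qtnf7, C7 was called, against 0.348% of all genes tested. All 8 of 8 fitted differences were below 0, against 5679 of 11486 tested genes with no part in the rule, and the median was −0.47. Both Tg female libraries lay below both Tg male ones for 3 of 8, against 14.3% of 10860 genes at 10 CPM or more. The 9 small leucine-rich proteoglycans tested had a median of −0.44 and 0 calls, and Dcn (decorin) had 3063, 3118, 2069, 3317 and 3541 CPM (−0.46 ± 0.32, edgeR adjusted p = 0.884). Tg female 2 was the lowest library for Dcn. The 19 basement membrane genes had a median of −0.23 and 0 calls, and the 15 circadian clock genes −0.12 and 0 calls. Genes of fibrillar collagens other than Col14a1 gave 0 calls, and Col3a1 and Col1a2 had fitted differences of 0.17 ± 0.26 and −0.09 ± 0.23. No gene of the myofibroblast, TGF-beta and BMP, WNT, growth factor or transcription factor lists was called.

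Genotype could be looked at only as 1 library labelled nTg against the 2 labelled Tg female, with no replicate and no test. Of 8352 genes at 20 CPM or more, 55 were at least 2-fold higher in nTg female 1 and above all 4 Tg libraries (0.659%), and 118 were as far lower (1.41%). Errfi1, a feedback inhibitor of the EGF receptor, had 529 CPM (exact Poisson interval 490 to 570, for counting error only) against 48.6 and 98.8 in the Tg female and 209 and 136 in the Tg male libraries. Ddit4, a stress-induced inhibitor of mTOR signalling, had 77.6 CPM (63.1 to 94.3) against 7.77, 22.7, 50.5 and 36.2. Adamts15 had 386 CPM against 181 and 5.68 in the Tg female libraries, which differ widely from each other. Nrg1 (neuregulin) and Il4ra had 41.9 CPM each, with 1.77 to 11.9 and 10.8 to 38.1 in the Tg libraries. On the lower side, Gria4 had 1.55 CPM (0.188 to 5.60), Ifi205 3.10, Gm17167 3.88, Aox2 3.88 and the globin gene Hbb-bs 10.9, the last against 33.3 to 61.5 in the Tg libraries. Hbb-bs is a gene of red cells, and Ifi205 has close paralogs among which reads may be split.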

How the data were processed

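Single-nucleus RNA of adult mouse hearts was captured in 10x Genomics droplets, per the labels' protocols. The authors deposited UMI counts for each gene in each barcode, made with Cell Ranger 7.0.0, per the file headers, against mm10, per the submitters' processing notes. Aligner settings and the counting of introns and strand are not given in the sources used here. Members had 689874 to 1760692 summed UMIs per library, which limits precision for scarce genes. Nuclei were summed per library and set, and CPM is UMIs over that sum, times 1e6. Sex was tested with edgeR 4.0.16 (TMM, filterByExpr, quasi-likelihood, Benjamini-Hochberg adjustment over all genes, threshold 0.05), with DESeq2 1.42.0 as an alternative, in R 4.3.3. The labels do not say that libraries came from separate animals, so p-values measure only the spread between these libraries.

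Doublets were scored with scrublet in scanpy 1.11.5 (expected rate 6%), kept in the values and removed in an alternative, where 2.22 to 5.34% of members were removed. In Tg female 2 the caller's threshold called 0, so the highest scores were removed there. The sex test was tested on simulated counts: of the 200 genes changed among 11507, it called 93.3% of those changed 4-fold and 33.3% of those changed 2-fold, with 4 false calls. The changed genes were drawn only from genes with more UMIs, and the simulated spread was the one fitted to these libraries. The shares called therefore do not cover scarce genes. Replicate numbers did not pair the samples (the deviations of same-numbered Tg libraries had a Pearson correlation of 0.03 across 11507 genes).

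The named genes were the 15 highest and 10 lowest mean ratios among genes of at least 20 CPM with the same direction in 5 of 5 libraries (members against others), and the 10 highest and 10 lowest fitted differences among called genes of at least 10 CPM without overlap (sex). To these came the 5 lowest adjusted p (interaction), the 5 highest and 5 lowest ratios (nTg library), the rule genes, Ccna2, sex-linked genes and up to 4 genes of highest level per list. Further genes were singled out after their values had been seen: those called besides these, Tll2, the genes named against the other sets and the list members that were higher or lower in 5 of 5 libraries. The members and all 18 gene lists were chosen with earlier results of these data known. Alternatives changed scaling, the low-count filter, depth, doublets, the rule, the fit and the libraries used. Of the genes that this rule names, 2 are not reported here.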

Additional observations from a re-analysis of the deposited data

Results flagged for a closer look

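Sex differences that differed between members and the other gated nuclei were found for 5 genes by the test of that difference (edgeR quasi-likelihood interaction, the 5 lowest adjusted p outside the rule genes). C7 was lower in the female libraries in both sets, by 0.99 ± 0.16 more in members (interaction −0.99). Apoe, the apolipoprotein E gene, had 429, 292, 224 and 328 CPM in the members of the 4 Tg libraries and 415, 291, 368 and 485 CPM in the other gated nuclei, an interaction of 0.70 ± 0.10 (edgeR adjusted p = 0.000231).

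The other 3 are scarce genes of nerve and glia whose levels in members rest on 1 library each. Cadm2, a synaptic adhesion gene (interaction 5.58 ± 0.88), had 39, 7, 1 and 0 UMIs in the members of the 4 Tg libraries. Slc35f1 (interaction 9.37 ± 1.502) had 29 UMIs in Tg female 1, 6 in Tg female 2 and 0 in both male libraries. Nrxn3, a neurexin gene (interaction −3.46 ± 0.54), had 39 UMIs in Tg male 1 and 1 in Tg male 2. Schwann markers in members were highest in Tg female 1 (393 CPM against 135 to 220 in the other Tg libraries), and their part in these 3 results was not tested. Without Tg male 1, the adjusted p was 0.215 for Cadm2, 0.515 for Slc35f1 and 0.961 for Nrxn3 (edgeR), and without Tg female 1 all 5 genes missed the threshold. With DESeq2 the adjusted p of the 5 ran from 0.576 to 1.0, and with at least 3 of 5 member genes Apoe and C7 missed it too (edgeR adjusted p of 0.625 and 0.802).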

How the results depend on the processing

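Main counts by setting were as follows. For sex in members (40 genes), no low-count filter gave 170, a replicate block 144 and the 5-library fit with sex alone 11. Members chosen without the limits on the other lists gave 40, of which 28 were among the 40 of the full rule. Without the limit on Fgf10, Acss3, Vit and Lvrn alone there were 42, of which 33 were among them. Members chosen after thinning gave 34, with 29 among them. Some of the calls thus depend on the rule. Leaving out 1 library gave 86 to 260, of which 35 to 40 were among the 40. For sex in the other gated nuclei (75), DESeq2 gave 194, no filter 587, the replicate block 295 and leaving out 1 library 188 to 1078. For the interaction (11), DESeq2 gave 0, no filter 27, members with at least 3 of 5 genes 7 and leaving out 1 library 2 to 40. The block kept all 40 and all 75 genes. The replicate numbers do not pair the libraries, and the block used them as numbers only.

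The member share differed by 12.7 percentage points between the sexes and reversed to −1.29 without the limits for the other lists. Leaving out 1 library gave 7.42 to 18.0. The replicate block gave 12.7 (pairs of 4.74 and 20.6 points, exact permutation p = 0.5). For members against other gated nuclei (940 genes alike in 5 of 5 libraries), a minimum of 50 CPM gave 581 and leaving out 1 library 1395 to 1511, since 4 libraries are easier to match than 5. Gm28153 reversed to −0.42 against nuclei with 0 or 1 member gene. For the nTg library (173 genes), the 4 Tg libraries as the other arm gave 105, a minimum of 50 CPM 52 and leaving out 1 Tg female library 181 to 340. Over the alternatives for single genes called between the sexes in members, 528 values kept direction and call and 70 kept direction only. With 2 libraries a group, 2-fold changes were often missed in simulated counts.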

Other observations

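Of the cyclin and cell-cycle genes, Top2a and Mki67, both of dividing cells, were at low levels in the members. Top2a had 0.776, 0.648, 13.6, 16.8 and 17.4 CPM and Mki67 had 0, 0, 3.41, 5.32 and 4.35 CPM, with the 2 lowest values of each gene in the first 2 of these libraries (nTg female 1, Tg female 1). The D-type cyclin Ccnd3 had 499, 345, 375, 469 and 449 CPM and was higher in members than in the other gated nuclei in 5 of 5 libraries (mean log2 ratio 0.15). Of 12 cyclin and cell-cycle genes tested for sex, 0 were called by edgeR and 0 had an unadjusted p under 0.05. Immediate early genes, which can rise during tissue handling, gave 0 calls among 9 tested, with Junb at 31.8, 44.0, 77.8, 43.4 and 31.9 CPM. Top2a and Mki67 were picked after their values had been seen.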
